A study of Mus musculus with 6 samples.

Results

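The 10 genes that let a cell sense endotoxin, microbial products and interleukin-1 were taken by symbol as the receptors, co-receptors, adaptors and brake of Toll-like and IL-1 receptor signalling. All 10 have a row among the 57180 gene rows of the deposited table, and 9 passed the filter on low counts. The cells were GC-1 spg, a single immortalised mouse line made from type B spermatogonia and grown in serum-containing medium. One group of 3 libraries came from cells labelled as overexpressing SNHG1, a long non-coding RNA gene that hosts small nucleolar RNAs. The other group of 3 came from cells given the empty vector. All 6 libraries were collected 24 hours after transfection and share the treatment label "Non-obstructive azoospermia". The labels name neither the sequence in the construct nor separate cultures for the replicates. A p-value here thus rests on library-to-library spread that may be technical.

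Toll-like receptors recognise microbial molecules at the cell surface or inside endosomes, and IL-1 receptors recognise the cytokines IL-1 alpha and IL-1 beta. Both families carry the same kind of signalling domain inside the cell, the TIR domain, and most of them use the adaptor MyD88 to reach IRAK kinases and NF-kappaB. Endotoxin is handed by CD14 to MD-2 (the Ly96 product), which sits on TLR4. TLR4 can also use the adaptor TRIF (the Ticam1 product), which is the adaptor of the double-stranded RNA receptor TLR3. In the testis these receptors are studied as sensors of infection and inflammation in several somatic and germ cell types.

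The label check came first. Snhg1 had 467, 555 and 487 counts under the overexpression label and 464, 402 and 385 under the vector label, and the groups overlapped when scaled to depth (log2 fold change 0.14 ± 0.10 (SE), edgeR, adjusted p = 0.52). The counted mouse gene therefore does not separate the groups, so every direction given follows the labels alone, with the overexpression libraries called the labelled libraries. Total counts ran from 15521900 to 21095427, so 1 count was worth 0.0474 to 0.0645 CPM (the count scaled to library size with TMM factors). On the first principal component (32% of the variance) the labelled libraries lay at -22.9 to -10.5 and the vector libraries at 14.9 to 24.8. Library 1 of the labelled group stood apart on the second principal component (19.2%), at 28.7 against -14.6 to 6.87 for the other 5. Defining germ cell genes were absent or nearly so: Ddx4, Zbtb16, Kit, Sall4, Id4, Sohlh1 and Tex101 had 0 counts in all 6 libraries, and 12 of 13 germ cell markers had under 10 counts in all, with Gfra1 the exception. Markers of leukocytes bear on this gene set, because Cd14 and Tlr2 are also myeloid genes. Of 17 macrophage and monocyte markers, 9 had under 10 counts in all libraries together, Tyrobp was at 0, and their summed level was 22.0 to 24.3 CPM in the labelled and 21.8 to 23.1 CPM in the vector libraries. Lyz2 made up 67.6% of that sum, 4 of the 17 were tested and 0 passed. Among the 4, Cd68, a lysosomal gene of macrophages, stood at 3.69, 3.75 and 4.04 CPM in the labelled and 2.52, 2.71 and 2.17 CPM in the vector libraries, with no overlap (log2 fold change 0.64 ± 0.16 (SE), edgeR, adjusted p = 0.0904). Csf1r, the macrophage growth factor receptor gene, was at 1.04 ± 0.0962 against 1.43 ± 0.0823 CPM (SD, n = 3), also with no overlap and in the other direction. It did not pass either (log2 fold change -0.47 ± 0.21 (SE), edgeR, adjusted p = 0.319). Groups without overlap were seen for 23.7% of all tested genes. The part of leukocytes in the Cd14 and Tlr2 results was not tested. Of the Sertoli cell markers 5 were tested, of the Leydig cell markers 2 and of the endothelial markers 1, with 0 calls, and 0 lymphocyte and neutrophil markers had enough counts to be tested. Of 9 mesenchymal markers 6 were tested. Pdgfra rose (1.39-fold, edgeR, adjusted p = 0.0143). Col1a2 (0.815-fold, edgeR, adjusted p = 0.00797) and Col3a1 (0.695-fold, edgeR, adjusted p = 0.0103) fell. Over all tested genes, 2.4% passed. Summed, the mesenchymal markers stood at 20100 to 21000 CPM in the labelled and 23800 to 25300 CPM in the vector libraries. Col1a2 made up 65% of this, and Thy1 and Lum were at 0. The Sertoli cell markers summed to 640 to 736 against 623 to 649 CPM, 84.5% of it Rhox5, with Wt1, Fshr and Inhbb at 0. The germ cell markers summed to 2.18 to 2.92 against 1.61 to 2.39 CPM.

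In the labelled libraries, 3 of the 10 genes rose. They were the co-receptor gene Cd14, the receptor gene Tlr2 and the adaptor gene Myd88, and 0 of the 9 tested genes fell. Over all 14605 tested genes, 2.4% passed at an adjusted p of 0.05, 1.54% as higher and 0.856% as lower. The gene set was chosen with earlier results of these data known, so setting its calls beside these shares is a description only. The median log2 fold change of the 9 was -0.0056, beside 0.0065 over all tested genes. The 3 genes were higher by 1.24 to 2.61-fold, and the log2 fold changes of the 6 that did not pass lay between -0.24 and 0.16. Passing and not passing does not show that 2 genes differ: the 95% interval of Ly96, at 0.841 to 1.48-fold, covers that of Myd88, at 1.12 to 1.36-fold. As in all bulk samples, more cells with a transcript and more transcript per cell cannot be told apart.

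**Figure D1:**
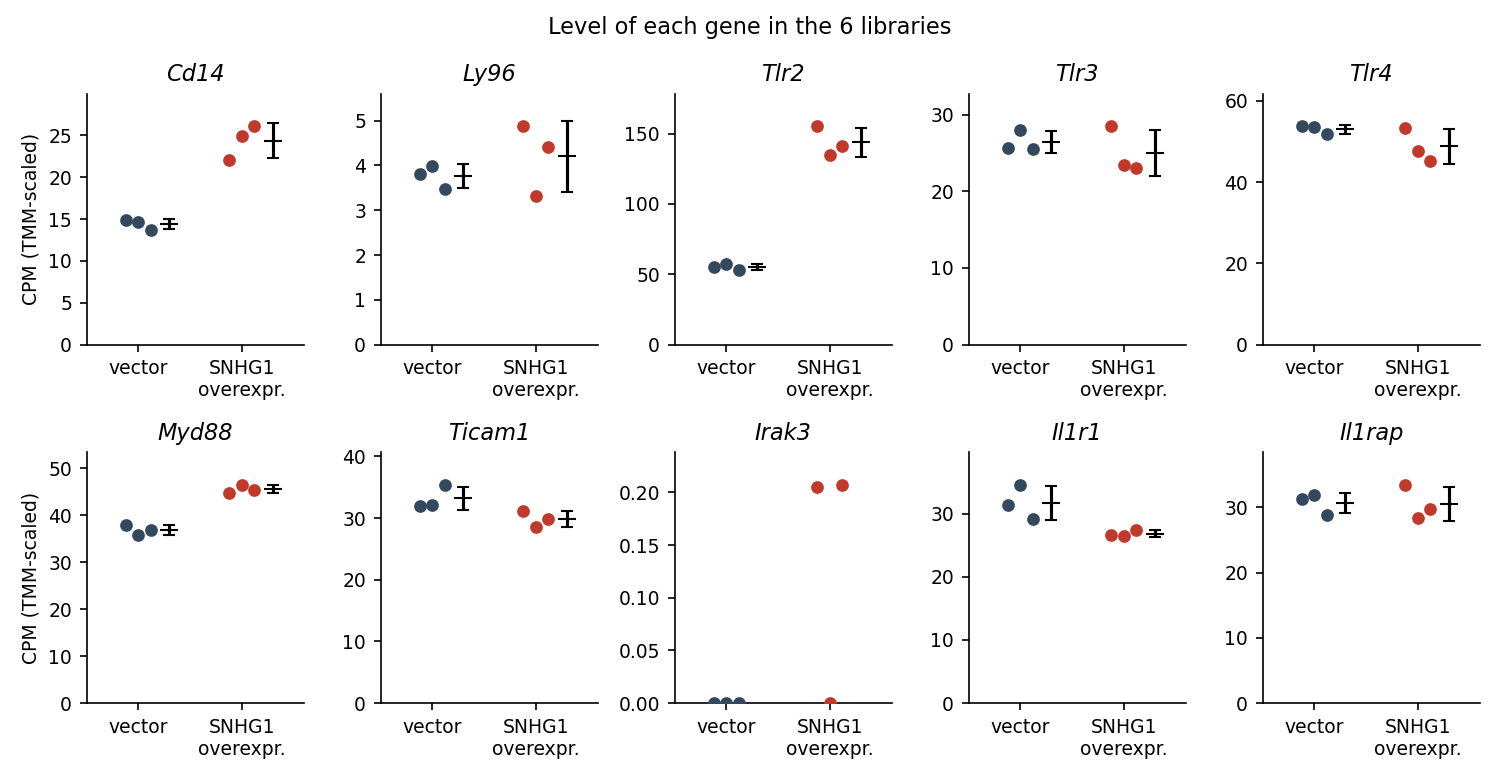
Level of each of the 10 genes in CPM (linear axis from 0) in the 3 vector libraries (dark) and the 3 libraries labelled SNHG1 overexpression (red), with the mean and SD beside the points except for Irak3. The groups of Tlr2, Cd14 and Myd88 stand clear of each other, those of Ticam1 and Il1r1 do so by a small margin in the other direction, and the rest overlap. Of all tested genes, 23.7% had groups that did not overlap.

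The sequence before the start site is shown for the 2 raised genes that the promoter table holds, Tlr2 and Myd88, and for Tlr3, which had a motif match but did not pass. Of the 10 genes, 7 were found in RefSeq's promoter table for GRCm38.p6, with 9 start sites in all. Each sequence is the 250 bases before the annotated start, 5′ to 3′ on the gene's strand. Capitals mark matches, on either strand, to the NF-kappaB consensus or to the interferon-stimulated response element, searched as 2 copies of GAAA with any 2 bases between them. The Tlr2 sequence lies at chr3:83841609-83841858, the Tlr3 sequence at chr8:45410381-45410630 and the Myd88 sequence at chr9:119340019-119340268, all on the minus strand. These GRCm38.p6 positions do not line up with the gene coordinates given below and cannot be compared with them.
Tlr2: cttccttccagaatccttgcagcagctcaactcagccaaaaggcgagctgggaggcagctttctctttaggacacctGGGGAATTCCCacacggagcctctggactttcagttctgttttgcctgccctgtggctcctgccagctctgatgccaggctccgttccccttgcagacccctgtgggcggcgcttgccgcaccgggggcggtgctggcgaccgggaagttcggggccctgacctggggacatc
Tlr3: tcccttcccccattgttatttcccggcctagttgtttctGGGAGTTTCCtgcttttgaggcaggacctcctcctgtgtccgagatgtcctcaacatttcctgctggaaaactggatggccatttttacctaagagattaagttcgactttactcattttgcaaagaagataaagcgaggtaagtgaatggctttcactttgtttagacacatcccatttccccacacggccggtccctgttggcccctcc
Myd88: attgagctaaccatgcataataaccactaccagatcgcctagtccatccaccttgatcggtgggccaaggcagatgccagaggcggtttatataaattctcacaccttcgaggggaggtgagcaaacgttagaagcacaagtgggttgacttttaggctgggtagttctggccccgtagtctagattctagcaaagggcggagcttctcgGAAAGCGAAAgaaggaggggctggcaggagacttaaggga

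Tlr2 has 2 overlapping NF-kappaB matches, GGGGAATTCC and GGGAATTCCC, that together cover bases -173 to -163 before the start. Tlr3 has 1, GGGAGTTTCC, at -211 to -202. Myd88 has no NF-kappaB match in this window and has an interferon-stimulated match, GAAAGCGAAA, at -40 to -31. Among all 32851 promoters of that length in the table, 7.25% hold an NF-kappaB match and 2.98% an interferon-stimulated match. The second of 2 Il1r1 start sites also has an NF-kappaB match, and the windows of Ticam1, Irak3 and Il1rap have neither motif. A match is a string of letters and does not show binding.

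Cd14 encodes the endotoxin-binding co-receptor (ENSMUSG00000051439, chromosome 18, 36858120 to 36859851 in the table's own coordinates, whose build is unstated). Its level was 22.0, 24.96 and 26.1 CPM in the labelled libraries and 14.9, 14.6 and 13.7 CPM in the vector libraries. Every labelled library was above every vector library. Cd14 rose by 0.76 ± 0.10 (log2 fold change with SE, 3 libraries a group), 1.69-fold with a 95% interval of 1.45 to 1.97 (edgeR, adjusted p = 0.00728).

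Ly96, which encodes the TLR4 partner MD-2 (ENSMUSG00000025779, chromosome 1, 16758275 to 16779835), was the least counted of the 9 tested genes. It had 95, 70 and 85 counts in the labelled and 80, 62 and 64 in the vector libraries, or 4.87, 3.32 and 4.41 CPM against 3.81, 4.00 and 3.47 CPM. The groups overlapped, and labelled replicate 2 was the lowest of the 6. The log2 fold change was 0.16 ± 0.18 (SE; edgeR, adjusted p = 0.679), and its 95% interval of 0.841 to 1.48-fold does not exclude a rise as large as the lower bound for Cd14.

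Tlr2, the receptor of bacterial lipopeptides (ENSMUSG00000027995, chromosome 3, 83743579 to 83749074), changed most among the 9. It stood at 155.2, 134.9 and 141.0 CPM in the labelled libraries and at 55.0, 57.2 and 53.1 CPM in the vector libraries. The lowest labelled library was above the highest vector library by more than the whole range within either group. Tlr2 rose by 1.38 ± 0.07 (log2, SE, n = 3 per group), 2.61-fold with a 95% interval of 2.33 to 2.91 (edgeR, adjusted p = 3.67e-05). It ranked 59 among the 14605 tested genes by size of increase, whereas Cd14 ranked 225 and Myd88 1344.

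Tlr4, the endotoxin receptor (ENSMUSG00000039005, chromosome 4, 66745821 to 66848521), did not move with its co-receptor gene. Its values were 53.4, 47.5 and 45.3 CPM in the labelled libraries against 53.7, 53.6 and 51.8 CPM, and labelled replicate 1 fell within the vector range. The fold was 0.919 with a 95% interval of 0.815 to 1.04 (edgeR, adjusted p = 0.45), an interval that does not reach the rise of Cd14. Tlr3, the double-stranded RNA receptor (ENSMUSG00000031639, chromosome 8, 45848702 to 45864117), stood at 28.5, 23.5 and 23.0 against 25.6, 28.04 and 25.5 CPM. Its groups overlapped and its fold of 0.947, 95% interval 0.804 to 1.11, did not pass either (edgeR, adjusted p = 0.728).

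Myd88 encodes the adaptor shared by the IL-1 receptors and all of these Toll-like receptors but TLR3 (ENSMUSG00000032508, chromosome 9, 119165000 to 119170477). It stood at 44.8, 46.5 and 45.3 CPM in the labelled libraries and at 38.0, 35.8 and 36.8 CPM in the vector libraries, with no overlap. The rise of 0.31 ± 0.06 (log2, SE, n = 3 per group), 1.24-fold with a 95% interval of 1.12 to 1.36, passed narrowly (edgeR, adjusted p = 0.0457). It lost the call in 8 of 14 alternatives, in 5 of the 6 fits that left out 1 library (without labelled replicates 2 or 3 or any vector replicate, adjusted p = 0.126 to 0.176), and the adjusted p ran from 0.0208 to 0.176. Across genes the log2 fold change was higher at higher GC content, and with GC and length trends removed the log2 fold change of Myd88 was 0.23 (edgeR, adjusted p = 0.0767). Myd88 also overlaps Acaa1a, a peroxisomal thiolase gene on the opposite strand, and the strand setting of the counting is not given, so reads of the pair may not have been told apart. Acaa1a itself stood at 45.7 ± 4.17 against 37.8 ± 0.765 CPM (SD, n = 3; edgeR, adjusted p = 0.141), and its part in the Myd88 result was not tested.

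Ticam1, which encodes TRIF (ENSMUSG00000047123, chromosome 17, 56576319 to 56583786), went the other way by a small amount. Its level was 31.2, 28.6 and 29.9 CPM in the labelled and 32.0, 32.2 and 35.4 CPM in the vector libraries. The groups did not overlap, as was the case for 23.7% of all tested genes, but the fold of 0.901 (95% interval 0.799 to 1.02) did not pass (edgeR, adjusted p = 0.346).

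Irak3 encodes IRAK-M, a brake on IRAK kinases (ENSMUSG00000020227, chromosome 10, 119977553 to 120038035). Counts of 4, 0 and 4 were found in the labelled libraries and 0 in each vector library, and it failed the filter. A count of 0 allows up to 3 counts, or 0.142 to 0.193 CPM in these libraries, and such limits cover counting error only. A difference in Irak3 was not detectable at this depth. It also overlaps the gene Tmbim4 on the opposite strand, which had 5272 counts in all.

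The signalling chain of the IL-1 receptor, Il1r1 (ENSMUSG00000026072, chromosome 1, 40264240 to 40356417), was lower in each labelled library without passing the test. Its level was 26.6, 26.4 and 27.4 CPM in the labelled and 31.4, 34.5 and 29.1 CPM in the vector libraries, with no overlap. The log2 fold change was -0.24 ± 0.08 (SE), 0.847-fold with a 95% interval for this gene alone of 0.742 to 0.967, and the adjusted p over all genes was 0.197 with edgeR and 0.178 to 0.432 over the alternatives. Its accessory chain Il1rap (ENSMUSG00000022514, chromosome 16, 26400454 to 26548867) stood at 33.5, 28.4 and 29.8 against 31.3, 31.8 and 28.9 CPM. These groups overlapped, and the fold was 0.996 with a 95% interval of 0.869 to 1.14 (edgeR, adjusted p = 0.979).

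**Figure D2:**
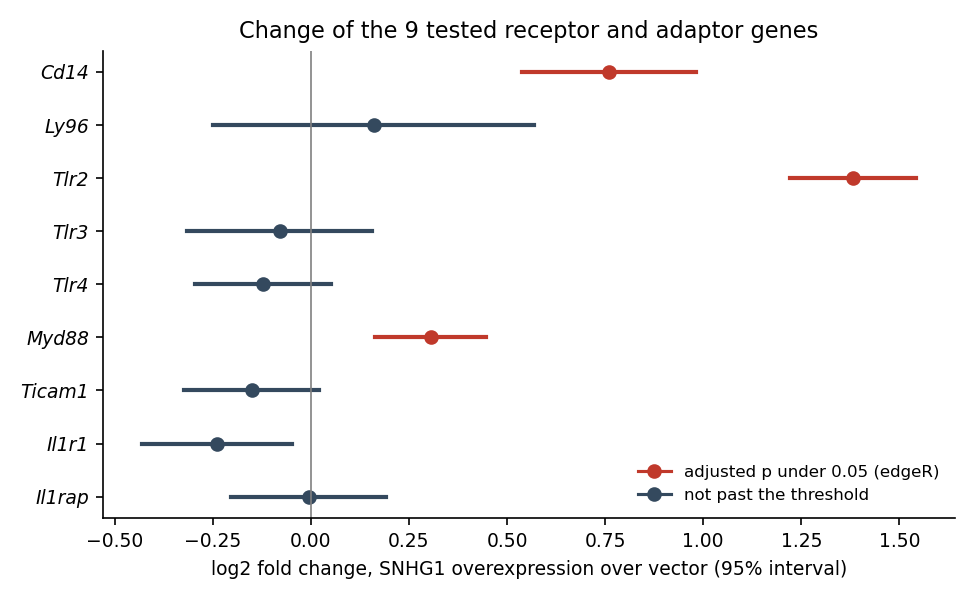
Log2 fold change of the 9 tested genes (points) with 95% intervals from the edgeR fit (bars), in the order of their roles. Tlr2 at 1.38, Cd14 at 0.76 and Myd88 at 0.31 passed the threshold. The interval of Ly96 is the widest.

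Genes that work side by side were compared within each library, where depth cancels. Trends with GC content and length need not cancel, and the ratios were not corrected for them. These 4 pairs were picked by role after the values had been seen, so they are descriptions. The exact permutation test of 3 against 3 libraries cannot give a two-sided p under 0.1, which all 4 pairs reached (adjusted p = 0.1 over the 4). The count ratio of Tlr2 to Tlr4 was 2.90, 2.84 and 3.11 in the labelled libraries and 1.02, 1.07 and 1.03 in the vector libraries, a 2.84-fold difference. Equal numbers of reads for the receptor genes thus gave way to nearly 3 Tlr2 reads per Tlr4 read, where reads are not corrected for gene length. The ratio of Cd14 to Ly96 was 4.52, 7.51 and 5.92 against 3.90, 3.66 and 3.94, with a wide spread in the labelled group. The ratio of Myd88 to Ticam1 was 1.44, 1.62 and 1.52 against 1.19, 1.11 and 1.04, or 1.37-fold. Myd88 reads may include reads of the overlapping gene Acaa1a, whose part in this ratio was not tested. The ratio of Il1r1 to Il1rap was 0.794, 0.931 and 0.920 against 1.00, 1.08 and 1.01, or 0.853-fold.

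**Figure D3:**
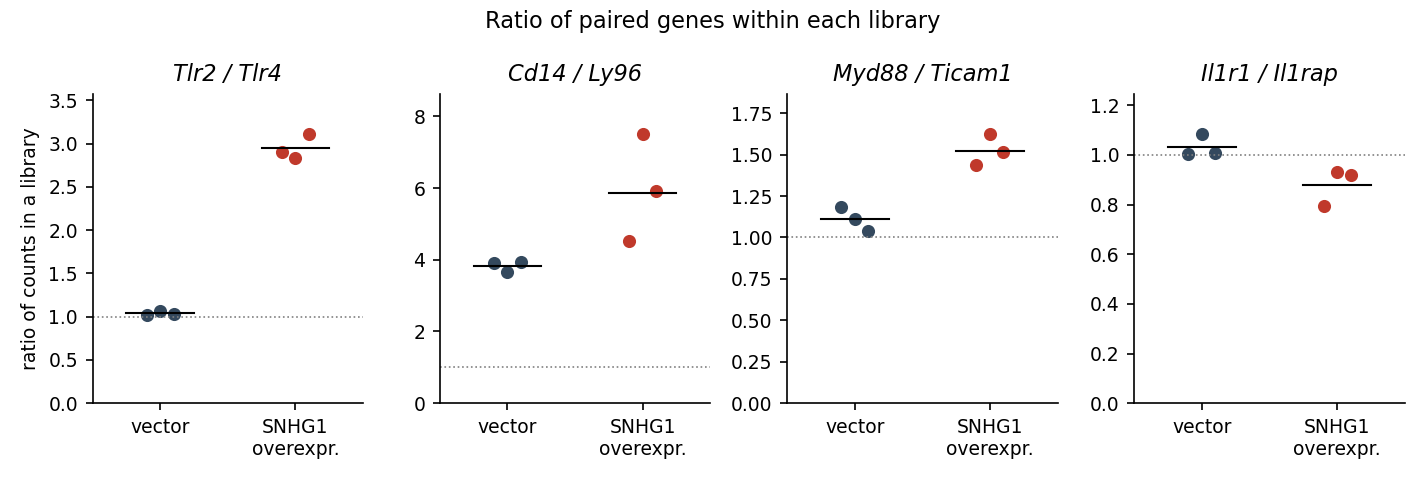
Ratio of the counts of 2 genes in each library (points; linear axes from 0; dotted line at a ratio of 1) with the geometric mean of each group (line). The Tlr2 to Tlr4 ratio is 1.02 to 1.07 in the vector libraries and 2.84 to 3.11 in the labelled libraries. None of the 4 pairs, picked after the values had been seen, overlaps between groups. Of single tested genes, 23.7% did not overlap either, and the share over gene pairs was not computed.

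Levels between the genes can be compared only per length, and the length behind the deposited FPKM matters here. The lengths that count, FPKM and total imply were equal to the GENCODE M21 exon length for Tlr2 (3014 bp) and Ticam1 (2992 bp) but longer for Myd88 (4621 against 2576 bp), Tlr3 (11835 against 5207 bp) and Cd14 (2509 against 1732 bp). For Cd14 the implied length exceeds the gene's own span of 1732 bp. In FPKM, the vector libraries had Tlr2 highest at 18.3 ± 0.686, then Ticam1 at 11.1 ± 0.648, Myd88 at 7.96 ± 0.224, Tlr4 at 7.83 ± 0.156 and Cd14 at 5.72 ± 0.245 (SD, n = 3). Below these came Il1r1 at 3.22 ± 0.281, Ly96 at 2.37 ± 0.168, Tlr3 at 2.23 ± 0.122 and Il1rap at 2.03 ± 0.102, and Irak3 was listed at 0. Myd88 overlapped with Tlr4 over the 3 libraries, as did Ly96 with Tlr3. With CPM per kb of M21 exon, Myd88 moved to second at 14.3 ± 0.428, ahead of Ticam1 at 11.1 ± 0.638, and Tlr3 at 5.07 ± 0.271 overlapped with Il1r1 at 4.98 ± 0.433. Tlr2 stayed first and Il1rap ninth on both scales and in both groups. In the labelled libraries Cd14 passed Tlr4 on both scales, at 14.1 ± 1.21 against 8.77 ± 0.754 CPM per kb of exon (SD, n = 3).

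**Figure D4:**
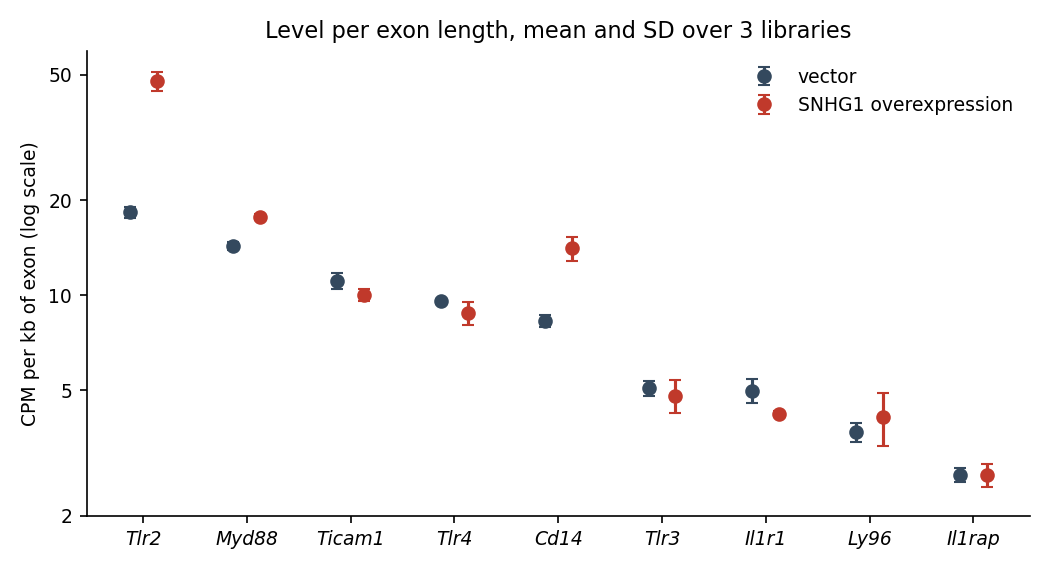
Mean and SD over 3 libraries of CPM per kb of M21 exon (log axis) for the 9 tested genes, vector libraries dark and labelled libraries red, in the order of the vector level. Tlr2 is highest in both groups and Il1rap lowest.

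The other genes of the pathway were taken from 7 role lists of 65 genes, of which 40 were tested. One rose and 0 fell, a share near the 2.4% of all tested genes and so no result about the lists. An unadjusted p under 0.05 was seen for 9 of the 40, beside 17% of all tested genes, and the median log2 fold change was 0.0073. DESeq2 called 5 of the 65. The gene that rose was Tnfaip3, which encodes the ubiquitin-editing inhibitor A20. It stood at 20.1, 15.3 and 14.9 CPM in the labelled and 8.0, 7.03 and 9.0 CPM in the vector libraries, 2.09-fold higher (log2 fold change 1.07 ± 0.15 (SE), edgeR, adjusted p = 0.0139). Without vector replicate 1 or vector replicate 2 its adjusted p was 0.067 or 0.0607, so that 0 genes of these lists passed. The other 6 tested inhibitor genes lay between -0.17 and 0.36 (log2 fold change), none of them past the threshold. The decoy receptor gene Il1r2 and the receptor antagonist gene Il1rn had fewer than 10 counts in all.

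Most other Toll-like receptor genes were scarcely counted. Of 13 receptor and co-receptor genes, 7 had fewer than 10 counts in all, and Tlr11 and Ly86 had 0. Of these genes 3 were tested and 0 passed by edgeR, none with an unadjusted p under 0.05. Among them were the genes of the TLR2 partners TLR1 and TLR6. Tlr6 was counted 294, 270 and 236 times in the labelled group and 343, 235 and 224 times in the vector group (log2 fold change -0.12 ± 0.14 (SE), edgeR, adjusted p = 0.694). Tlr1 had 32, 11 and 23 against 33, 11 and 14 (0.10 ± 0.47 (SE), adjusted p = 0.931). These receptors are close relatives, and whether reads were split between them was not tested. The chaperone gene Hsp90b1, whose product gp96 folds Toll-like receptors, was at 1059 ± 48.8 against 1259 ± 46.2 CPM (SD, n = 3), with no overlap (edgeR, adjusted p = 0.0618). It passed with DESeq2 (adjusted p = 0.0089), with the filter of 1 CPM in 3 libraries (0.0465) and without labelled replicate 1 (0.0263), and its lowest and highest adjusted p among all alternatives were 0.0089 and 0.223. Cnpy3, another chaperone gene, had a log2 fold change of 0.10 ± 0.07 (SE; edgeR, adjusted p = 0.46).

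The adaptor and kinase genes below the receptors showed 0 calls by edgeR among 23 tested, where the 2.4% background leaves little to be called. Of the 23, 4 had an unadjusted p under 0.05, beside 17% of all tested genes, and these 4 were kinase, ligase or transcription factor genes. The adaptor genes Tirap, at 0.11 ± 0.11, and Sarm1, at 0.01 ± 0.17 (log2 fold change, SE), did not pass (edgeR, adjusted p = 0.647 and 0.977). Ticam2, whose product links TLR4 to TRIF, had 2, 0 and 0 against 0, 1 and 0 counts. Among 21 tested kinase, ligase and transcription factor genes, the 2 of smallest p were Traf3 and Irak4. The ubiquitin ligase gene Traf3 was at 0.40 ± 0.09 and the kinase gene Irak4 at 0.27 ± 0.07 (log2 fold change, SE), without passing (edgeR, adjusted p = 0.0636 and 0.0857). Traf3 passed with DESeq2 alone (adjusted p = 0.0251), the other alternatives reaching up to 0.202. The lowest value of the list, named after it was seen, was that of Irak2, a kinase gene of the same family as Irak3. It stood at 11.5, 6.60 and 9.02 CPM in the labelled libraries and at 13.6, 14.4 and 15.8 CPM in the vector libraries, which did not overlap (log2 fold change -0.69 ± 0.19 (SE), edgeR, adjusted p = 0.123).

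**Figure D5:**
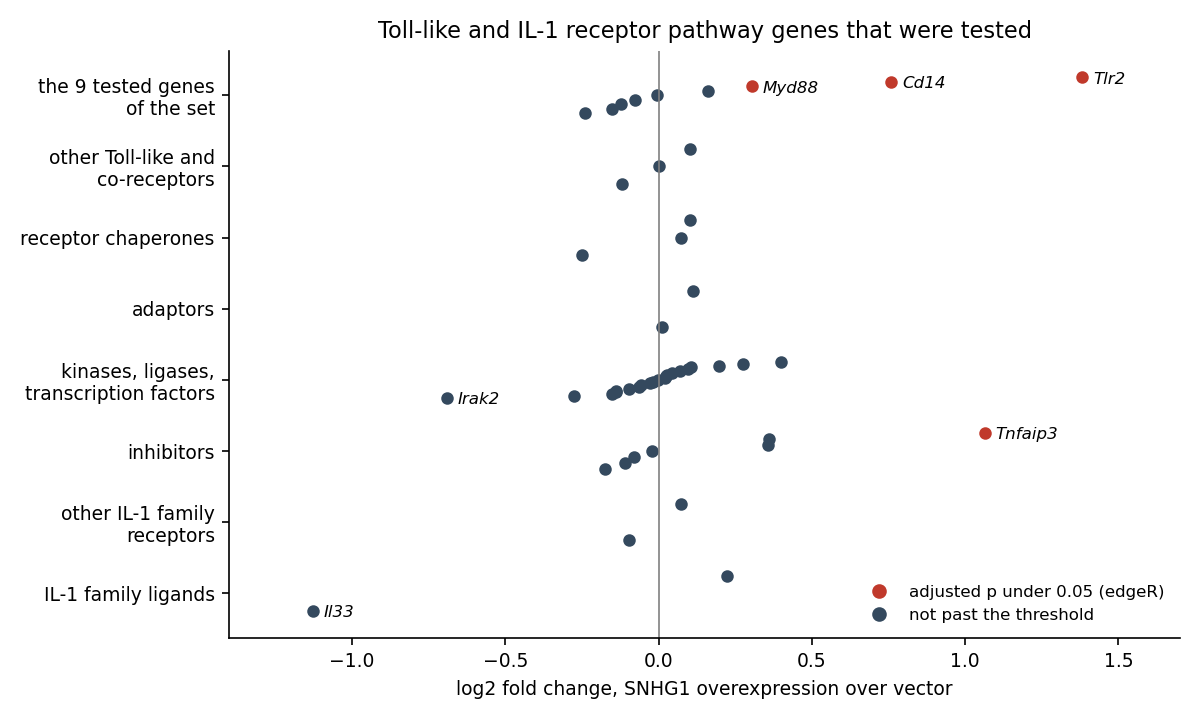
Log2 fold changes of the 9 tested genes of the set (top line) and of the 40 other tested pathway genes by role (lines below). Myd88, Cd14 and Tlr2 and, among the other genes, Tnfaip3 passed the threshold (red), and Irak2 and Il33 had the lowest values without passing.

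Ligands and further receptors of the IL-1 family closed the survey. Il1b had 0 counts in all libraries, and Il1a had 2 counts in labelled replicate 3 and 0 elsewhere. Il18 had 257, 302 and 264 counts in the labelled and 230, 211 and 200 in the vector libraries, and Il33 13, 8 and 6 against 13, 17 and 24, and neither passed (edgeR, adjusted p = 0.375 and 0.228). Il1rl1, the gene of the IL-33 receptor ST2, was the most counted of the receptor genes on these lists. Its level was 396.0, 432.5 and 406.7 CPM in the labelled and 421.7, 374.5 and 378.9 CPM in the vector libraries, with a fold of 1.05 (95% interval 0.947 to 1.17; edgeR, adjusted p = 0.604). Per length it stood at 56.8 ± 3.78 CPM per kb of exon in the vector libraries, above Tlr2 at 18.3 ± 0.682 (SD, n = 3). Il18rap, the accessory chain of the IL-18 receptor, was at 19.4 ± 1.26 CPM per kb of exon in the vector libraries (SD, n = 3), without a call (edgeR, adjusted p = 0.468). Its partner chain Il18r1 had 12, 5 and 3 against 10, 17 and 6 counts and failed the filter.

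The genes whose pattern over the 6 libraries was most like that of the 3 raised genes were found among 13246 tested genes with a mean of 20 or more counts. The measure was the root mean square difference of log2 CPM, each gene centred on its own mean. For Tlr2 these were Blnk, Gypc and Cxcl10, at differences of 0.0657, 0.0672 and 0.0977. For Cd14 they were Gm16098, BC037704 and Psmb10, at 0.0561, 0.08 and 0.0822. For Myd88 they included Vps37b and Tap2, at 0.0147 and 0.0281. All of these share the direction of the group difference, which the measure rewards, and the 6 libraries are the same for each. BC037704 did not pass the threshold (log2 fold change 0.70 ± 0.21 (SE), edgeR, adjusted p = 0.157), and the other genes named here did.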

How the data were processed

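The authors deposited whole-number counts and FPKM values per gene for 6 poly(A)-selected, stranded libraries, per the file headers. The submitters' processing notes list HISAT2, SAMtools 1.3.1, StringTie and the human build GRCh38, yet each of the 57180 identifiers is a mouse Ensembl gene. How reads were counted, and on which strand, was not stated.

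Counts were tested with edgeR 4.0.16 in R 4.3.3 (quasi-likelihood fit on group alone, TMM, filterByExpr). Adjusted p-values are Benjamini-Hochberg values over 14605 genes, called under 0.05. Single-gene intervals are at 95%. Alternatives were median-of-ratios or total-count scaling, no filter, 1 CPM in 3 libraries, DESeq2 1.42.0, limma-voom (limma 3.58.1), a replicate block, leaving out each library and, added after seeing the data, removal of GC and length trends. On simulated data for this comparison (14605 genes), the fit found 74% of 100 genes changed 2-fold and 52% of 100 changed 1.5-fold, and 16 of its 142 calls (11.3%) were of unchanged genes.

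The gene set and lists were chosen with earlier results of these data known. Named were the 10 genes, pathway genes past the threshold, the 2 of smallest p in lists without one, Snhg1 and the 3 genes most like each raised gene, of which 1 is not reported here. Any further gene was named after its values were seen.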

Additional observations from a re-analysis of the deposited data

How the results depend on the processing

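Tlr2 and Cd14 kept their direction and their call in each of the 14 alternatives, with log2 fold changes of 1.32 to 1.43 and 0.67 to 0.83. The highest adjusted p of Tlr2 was 0.000791 (edgeR without vector replicate 1). That of Cd14 came near the threshold, at 0.0448 (edgeR without vector replicate 3). Myd88 kept its direction (0.23 to 0.32) and lost its call with no filter, under the replicate block, with GC and length trends removed and in 5 fits with 1 library left out. Those trends were a Spearman rho of 0.378 with GC content and -0.282 with transcript length across 8190 genes, which are not independent replicates. Ly96, Tlr4, Ticam1 and Il1r1 kept their direction and stayed below the threshold in all 14. Against 350 changed genes, DESeq2 called 691 and the replicate block 163, and fits without 1 library called 123 to 807. Against 1 gene of the pathway lists, DESeq2 called 5, the filter of 1 CPM in 3 libraries 2, and fits with 1 library left out 0 to 3. The 807 came from the fit without labelled replicate 1. The cause of these differing numbers was not tested. The replicate numbers did not pair the libraries: same-numbered libraries had correlations of -0.00409, -0.0302 and -0.021 in their deviations from the group means, and 0 of 6 libraries correlated best with its own number. Under the block 2 of the 10 genes, Cd14 and Tlr2, passed.

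Values near 0 changed sign. Tlr3 was at 0.0151 with GC and length trends removed. Il1rap was at 0.0044 with no filter, at 0.0593 with those trends removed and at -0.0774 to 0.0451 with 1 library left out. Tlr1 ran from -0.2861 to 0.5867 with 1 library left out. Cnpy3 was at -0.0011 with trends removed. Sarm1 was at -0.0158 with limma-voom, -0.0045 under the replicate block, -0.0484 with trends removed and -0.2053 to 0.1177 with 1 library left out. At 456 counts in all, depth limits Ly96 most among the tested genes of the set, and Irak3 could not be tested.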
